A study of Mus musculus with 4 samples.

Results

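The hypoxia-inducible factor (HIF) pathway was followed through 10 genes in mouse kidney: Hif1a, Epas1, Egln1, Egln3, Vegfa, Adm, Bnip3, Ankrd37, Ndrg1 and P4ha1. Every probe whose gene name on the array is one of these symbols was taken, which gave 17 probes on 26 spots, of 41142 probes and 20862 named genes measured in all. RNA of 4 kidneys was measured on one-colour Agilent arrays, 1 array per group. The groups were NLRC5-/- after ischemia and reperfusion (injured), NLRC5-/- after a sham operation, wild type (WT) injured and WT sham. All mice were 8 weeks old and on the C57BL/6 background, and the injured mice had 30 min of ischemia of both kidneys. Reperfusion lasted 48 h by the sample titles but 24 h by the sample descriptions. Nlrc5 is a NOD-like receptor family member best known as a transcriptional activator of MHC class I genes. How the allele was made, and whether it acts in all cells, is not given in the sources used here.

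HIF is a pair of an oxygen-regulated alpha subunit, encoded by Hif1a or Epas1, and a stable beta subunit. With oxygen, the prolyl hydroxylases encoded by Egln1 and Egln3 mark the alpha subunit, the VHL ubiquitin ligase binds it and it is degraded. Without oxygen the alpha subunit accumulates as a protein and the pair binds short DNA motifs near its target genes, so much of the pathway's control is not at the level of the Hif1a or Epas1 transcript. In kidney, HIF-1 alpha is found mainly in tubule cells and HIF-2 alpha mainly in endothelial and interstitial cells, where it drives erythropoietin.

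The core of the HIF-binding motif is ACGTG or GCGTG, which reads CACGT or CACGC where it lies on the opposite strand. RefSeq promoters of the mouse build GRCm38.p6 were listed for 8 of the 10 genes, with 9 start sites. Of these 9 promoters, 8 held at least 1 such motif in the 250 bases before the start, against 38.6% of all 32851 promoters in the same table. Ankrd37 and P4ha1 had 3 separate stretches and Bnip3 had 4, and 4.65% of all promoters had 3 or more. Hif1a, Egln1 and Adm had 2 each and Egln3 had 1. One Vegfa start had 2 and the other had 0. A match is a stretch of letters and not evidence of binding. Shown are the promoters of Egln1 and Bnip3, which were lower after injury in both genotypes, of Adm, which differed in opposite directions, and of Ankrd37, which stood apart in 1 sham kidney. Each runs 5′ to 3′ on the strand of its gene and ends at the base before the start, and capitals mark the motif on either strand, with overlapping matches joined.
Egln1, chr8:124949255-124949504, minus strand: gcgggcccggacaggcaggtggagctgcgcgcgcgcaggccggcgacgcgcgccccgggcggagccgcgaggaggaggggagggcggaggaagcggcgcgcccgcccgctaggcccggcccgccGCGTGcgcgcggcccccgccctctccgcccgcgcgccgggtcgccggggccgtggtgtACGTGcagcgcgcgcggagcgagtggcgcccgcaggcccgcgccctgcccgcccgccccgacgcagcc
Bnip3, chr7:138909507-138909756, minus strand: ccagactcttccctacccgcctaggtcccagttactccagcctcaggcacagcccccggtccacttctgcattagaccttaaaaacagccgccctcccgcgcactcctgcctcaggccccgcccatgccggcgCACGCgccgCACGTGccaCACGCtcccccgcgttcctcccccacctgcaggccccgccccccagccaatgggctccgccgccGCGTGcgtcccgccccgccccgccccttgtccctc
Adm, chr7:110627407-110627656, plus strand: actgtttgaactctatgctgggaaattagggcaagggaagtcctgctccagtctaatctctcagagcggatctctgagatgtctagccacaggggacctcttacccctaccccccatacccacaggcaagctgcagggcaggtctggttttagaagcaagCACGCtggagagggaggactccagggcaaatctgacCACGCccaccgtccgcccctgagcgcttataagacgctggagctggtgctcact
Ankrd37, chr8:45999851-46000100, minus strand: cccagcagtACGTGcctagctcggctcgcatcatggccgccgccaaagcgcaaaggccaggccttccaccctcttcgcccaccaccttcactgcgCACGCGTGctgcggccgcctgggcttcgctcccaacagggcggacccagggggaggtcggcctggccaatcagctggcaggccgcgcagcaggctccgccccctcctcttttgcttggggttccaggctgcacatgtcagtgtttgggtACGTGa
In Bnip3, 3 of the 4 stretches lie between 117 and 95 bases before the start. In Ankrd37 one lies 6 to 2 bases before it.

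A level below is log2 of the background-subtracted signal of a probe minus the 75th percentile of its array, so that 0 is that percentile. A difference is the level on 1 array minus that on another, and levels of different probes are not comparable. The sums over marker genes below add scaled signals of different probes. They are compared only between arrays and are set mainly by their brightest probes. All 17 probes were well above background on all 4 arrays. Repeated spots of 1 probe gave an SD of 0.14 for a difference between 2 arrays, over 165 probes that were well above background in every spot. That SD is technical only, and it holds just the spread between spots. Error shared by all spots of an array, as from labelling or hybridization, is left out of it. The scanner's own error estimate for 1 reading of the 17 probes ran from 0.14 to 0.27 on the log2 scale. The spread between mice could not be measured with 1 array per group, and a 2-fold difference (1 on the log2 scale) was used as a description and not as a test. Where a gene had several probes, the one with the highest mean signal stands for it.

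The 75th percentile of signal was 362, 466, 182 and 457 units in NLRC5-/- injured, NLRC5-/- sham, WT injured and WT sham, and 67.5% to 74.9% of spots were well above background. All 10 markers of proximal tubule cells were well above background on every array. Both NLRC5-/- arrays came from one slide and scan and both WT arrays from another, so genotype and slide cannot be told apart, while injured and sham kidneys of a genotype shared a slide. The NLRC5-/- sham array had the sex-chromosome pattern of a female and the other 3 that of a male, with Xist at 5.20 there and not above background elsewhere. Sex and genotype thus cannot be told apart between the sham kidneys, nor sex and injury within NLRC5-/-. The single Nlrc5 probe read -3.62 and -3.77 on the injured and sham arrays labelled NLRC5-/-, against -3.35 and -4.08 on the injured and sham arrays labelled WT. It was thus not lower on the NLRC5-/- sham array, and the deleted part of the gene is not given in the sources used here. Genotypes are named as the arrays are labelled throughout, and each direction between genotypes rests on those labels. In whole kidney, fewer cells of a type and less RNA per cell cannot be told apart.

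In the NLRC5-/- kidneys all 10 genes read lower in the injured than in the sham array, with a median difference of -0.76. In the WT kidneys 7 of 10 did, with a median of -0.75. The genes lower in both were Hif1a, Epas1, the oxygen sensor Egln1, the angiogenic factor Vegfa, the mitophagy gene Bnip3, Ndrg1 and the collagen hydroxylase P4ha1. Egln3 and Ankrd37 read within the technical SD of each other on the 2 WT arrays, and Adm read higher in the injured WT kidney. In the NLRC5-/- comparison 3 of 10 were at least 2-fold apart, all lower (Hif1a, Egln1 and Ankrd37), where 9.16% of 16877 genes were 2-fold apart either way. In the WT comparison 5 of 10 were, Adm being higher and Hif1a, Egln1, Vegfa and Bnip3 lower, where 29.7% of 16525 genes were 2-fold apart. At 4-fold, 0 of 10 were apart in either comparison, where 2.51% and 9.33% of genes were. Egln1 passed 4-fold in WT with median scaling, at -2.05. With normexp background correction (limma's convolution model, fitted without flagged spots) the 3 differences in NLRC5-/- were -0.76, -0.94 and -0.70, under 2-fold. The median over all genes was 0.02 in NLRC5-/- and -0.01 in WT. In NLRC5-/-, 48.4% of all genes read below 0. With normexp on all spots, Egln3, Adm and P4ha1 stood above 0 in NLRC5-/-, at 0.60, 0.23 and 0.11, but that setting also moved the median of all genes there to 0.24, which only Egln3 exceeded. With median scaling Egln3 and Ankrd37 stood below 0 in WT, at -0.06 and -0.07. The authors' own value table gave -0.003 and -0.07, and normexp with the offset added after scaling gave -0.02 and -0.008. With quantile normalization Ankrd37 stood at -0.06 and Egln3 stayed above 0. The count of 7 of 10 in WT thus depended on the processing.

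**Figure D1:**
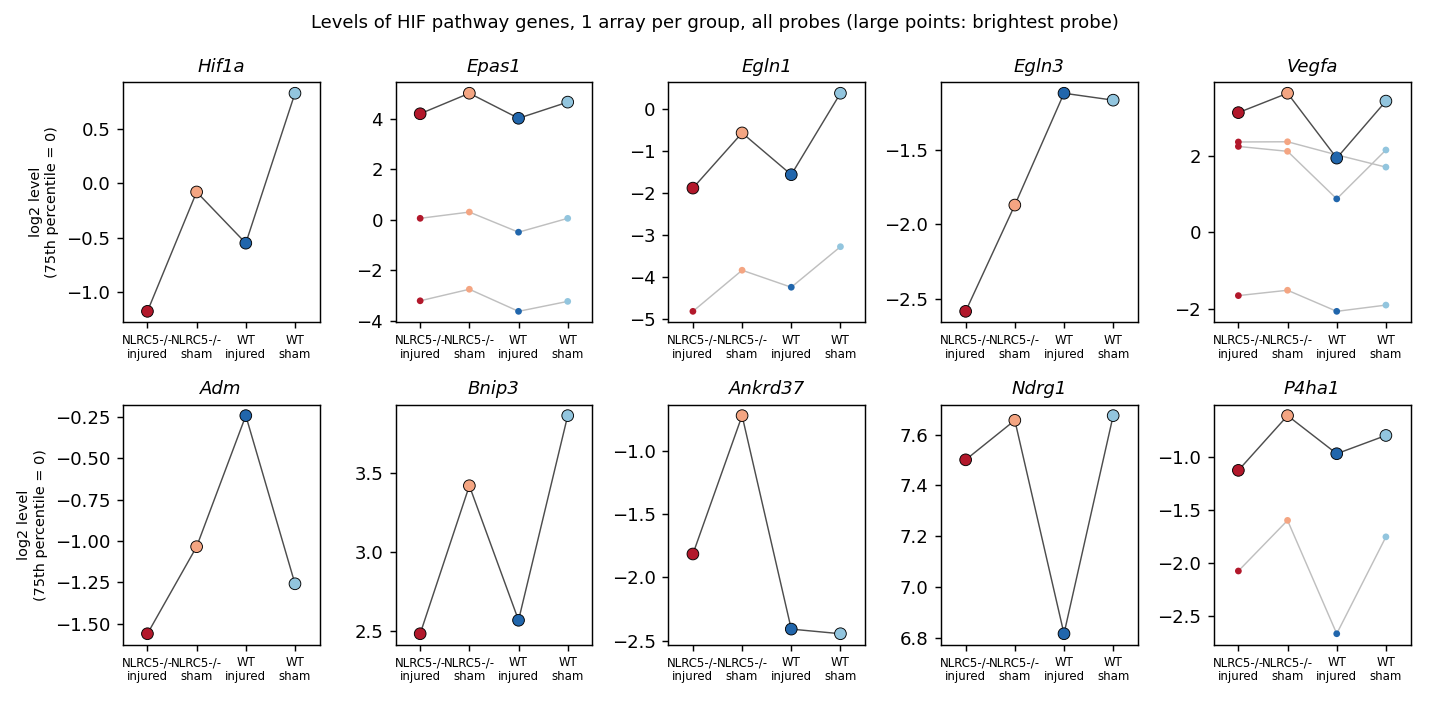
Levels (log2 signal, array 75th percentile at 0) of each gene on the 4 arrays, NLRC5-/- injured, NLRC5-/- sham, WT injured and WT sham from left to right. Large points are the brightest probe, small points the other probes, and each panel has its own scale. Hif1a, Egln1 and Bnip3 are lower in the injured than in the sham kidney of both genotypes, whereas Adm is highest in WT injured.

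**Figure D2:**
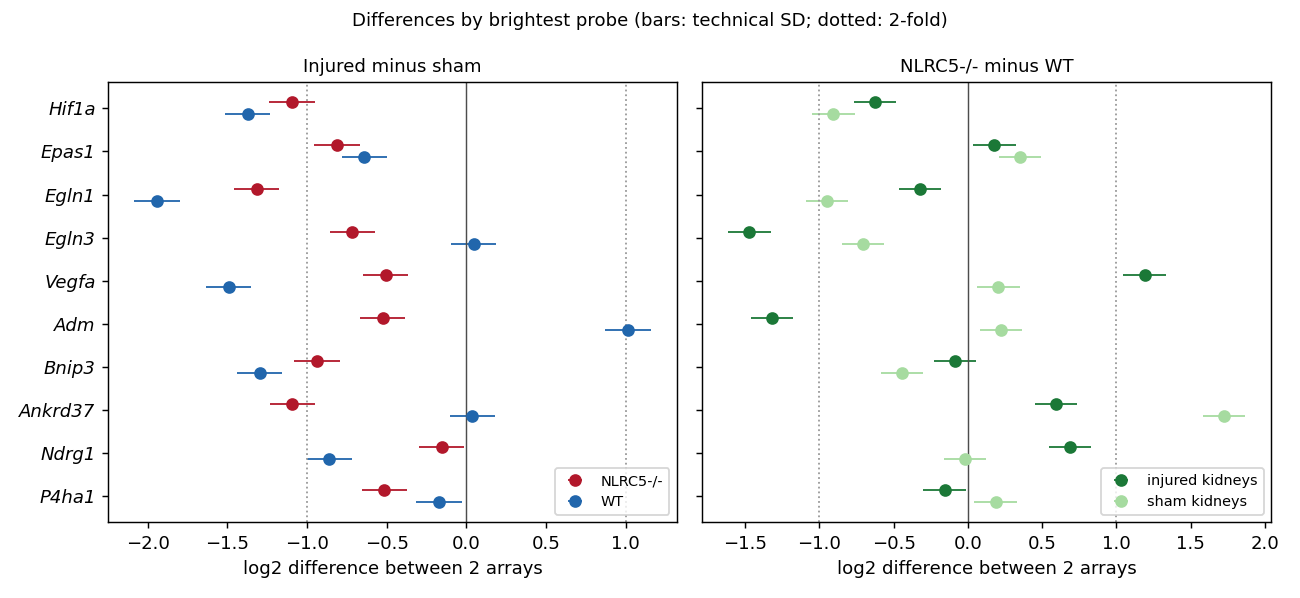
Log2 differences between 2 arrays for the brightest probe of each gene, injured minus sham on the left and NLRC5-/- minus WT on the right. Bars are the technical SD of 0.14 and dotted lines mark 2-fold. In NLRC5-/- all 10 genes lie below 0 after injury, whereas Adm lies at 1.02 in WT.

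Hif1a, the alpha subunit of HIF-1, was lower in the injured kidney of both genotypes. Its only probe (chr12:75047269-75047329, mm9) read -1.17 in NLRC5-/- injured and -0.08 in NLRC5-/- sham, against -0.55 in WT injured and 0.82 in WT sham. The order of the arrays was thus WT sham, NLRC5-/- sham, WT injured and NLRC5-/- injured, with every gap above the technical SD. The injury difference was -1.09 in NLRC5-/- and -1.37 in WT. NLRC5-/- minus WT was -0.62 in injured and -0.90 in sham kidneys, and the 2 injury differences were 0.28 apart.

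Epas1, the alpha subunit of HIF-2, differed less. The brightest of its 3 probes (chr17:87232615-87232674) read 4.19 in NLRC5-/- injured and 5.002 in NLRC5-/- sham, against 4.01 in WT injured and 4.65 in WT sham. The injured kidney was lower in both genotypes, by differences of -0.81 and -0.64, and neither reached 2-fold. NLRC5-/- minus WT was 0.18 in injured and 0.35 in sham kidneys. With normexp on all spots the injury difference in NLRC5-/- was -1.38, past 2-fold, and NLRC5-/- minus WT in injured kidneys was -0.29, of opposite sign. A second probe, designed on a cDNA clone and lying toward lower coordinates, gave injury differences of -0.25 in NLRC5-/- and -0.55 in WT. The third, on the same transcript as the first, gave -0.46 and -0.39. Without that correction all 3 probes agreed in sign for injury and for genotype.

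The genes whose pattern over the 4 arrays lay nearest to that of Hif1a, among 13933 genes, were Otud6b, a deubiquitinase, Mmgt1, a subunit of the membrane protein insertion complex of the endoplasmic reticulum, and Ttc33. Their Euclidean distances, after each gene's mean was set to 0, were 0.076, 0.085 and 0.088. For Epas1 they were Smim5, Kitl, the ligand of the Kit receptor, and Nckap5, at 0.097, 0.106 and 0.116. Among the pathway genes, Egln1 at 0.45 and Bnip3 at 0.51 were nearest to Hif1a, and P4ha1 at 0.46 and Ndrg1 at 0.49 were nearest to Epas1. Hif1a and Epas1 were 1.17 apart. These distances rest on 4 arrays and are descriptions only.

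Egln1 encodes PHD2, the main hydroxylase that sets HIF levels when oxygen is present, and it read lower in the injured kidney of both genotypes. Its brighter probe (chr8:127433241-127433300) read -1.88 in NLRC5-/- injured and -0.56 in NLRC5-/- sham, against -1.56 in WT injured and 0.38 in WT sham. The injury difference was -1.32 in NLRC5-/- and -1.94 in WT, and 2.10% of all genes lay below that value in NLRC5-/- and 4.64% in WT. These were the most negative differences of the 10 genes, but not with normexp. On all spots Egln1 stood at -0.26 in NLRC5-/- and -1.33 in WT, where Bnip3 had -1.44 and Vegfa -1.72. The dimmer probe read -4.82, -3.84, -4.24 and -3.28 in the same group order. It gave injury differences of -0.98 and -0.97, so both probes agreed in direction. The injury differences of the 2 genotypes were 0.63 apart by the brighter probe and -0.01 apart by the dimmer one.

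Egln3 encodes PHD3, a hydroxylase that is itself a HIF target, and it did not follow Egln1. Its probe (chr12:55280953-55281012) read -2.59 in NLRC5-/- injured and -1.87 in NLRC5-/- sham, against -1.12 in WT injured and -1.16 in WT sham. The 2 WT arrays differed by 0.05, within the technical SD, while the difference in NLRC5-/- was -0.72. NLRC5-/- injured minus WT injured was -1.47, and the sham kidneys differed by -0.71. The difference between injured kidneys was -0.98 with normexp fitted without flagged spots and -0.05 with normexp on all spots.

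Vegfa, the main endothelial growth factor, gave unlike patterns by probe. The brightest of its 4 probes (chr17:46154387-46154446) read 3.13 in NLRC5-/- injured and 3.63 in NLRC5-/- sham, against 1.94 in WT injured and 3.43 in WT sham. The WT injured kidney alone stood low, with an injury difference of -0.51 in NLRC5-/- and -1.49 in WT, and NLRC5-/- minus WT was 1.19 in injured kidneys and 0.21 in sham kidneys.

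The probe printed on 10 spots (chr17:46155512-46155571) had the same shape. It read 2.24 ± 0.04 in NLRC5-/- injured, where 1 spot was left out, and 2.11 ± 0.07 in NLRC5-/- sham, against 0.87 ± 0.12 in WT injured and 2.15 ± 0.08 in WT sham (SD over spots of 1 array). Spots of WT injured lay between 0.70 and 1.05, and no spot of another array read below 1.97. Its injury difference was 0.13 in NLRC5-/- and -1.28 in WT. These spots share 1 kidney per array, so the SD leaves out the spread between mice.

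The other 2 Vegfa probes lie at higher coordinates (chr17:46162376-46162435 and chr17:46169039-46169098). Vegfa is read from the minus strand, so these lie nearer to the start of the gene. The first read 2.36 in NLRC5-/- injured and 2.36 in NLRC5-/- sham, against 2.02 in WT injured and 1.70 in WT sham, and was thus not low in WT injured. The second read -1.66, -1.52, -2.07 and -1.91 in the same group order, with injury differences of -0.14 and -0.16. With the mean over all 4 probes, the WT injury difference was -0.65 and the difference between the injured kidneys 0.83, both under 2-fold. Whether the probes read different transcripts was not tested.

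**Figure D3:**
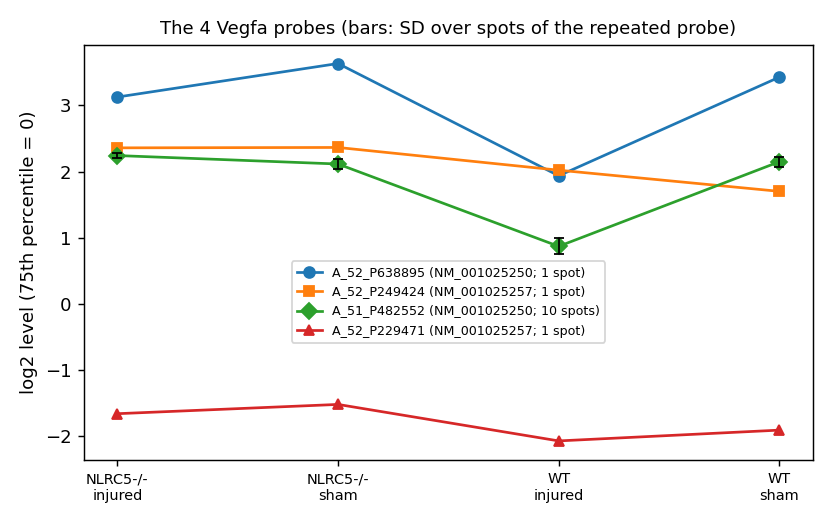
Levels (log2 signal, array 75th percentile at 0) of the 4 Vegfa probes on the 4 arrays, with the SD over repeated spots for the probe on 10 spots. The brightest and the repeated probe are low in WT injured, at 1.94 and 0.87, whereas the other 2 probes are not set apart there.

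Endothelial markers were lowest in WT injured, as some of the Vegfa probes were. All 10 were well above background on every array, and their summed scaled signal (in multiples of the array's 75th percentile) was 39.9 in NLRC5-/- injured and 55.1 in NLRC5-/- sham, against 11.8 in WT injured and 39.8 in WT sham. The same sum over 6 podocyte markers, podocytes being a main source of Vegfa in the glomerulus, was 5.49 and 8.54 against 2.13 and 5.46. Both sums were lowest in WT injured, as the 2 low Vegfa probes were. This was not particular to these cell types. The sums of thick ascending limb, macrophage, adipocyte and urothelium markers were also lowest there, at 198, 10.3, 4.62 and 0.83. Those of the remaining marker lists were not. The part of any cell type in the Vegfa values was not tested.

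Adm encodes adrenomedullin, a vasodilator peptide and HIF target, and it was the one gene of the 10 with opposite injury differences beyond the technical SD. Its probe (chr7:117773088-117773147) read -1.56 in NLRC5-/- injured and -1.03 in NLRC5-/- sham, against -0.24 in WT injured and -1.26 in WT sham. The WT injured kidney was high and the others lay together within 0.53 of each other. The injury difference was -0.53 in NLRC5-/- and 1.02 in WT, and the 2 differed by -1.54. NLRC5-/- minus WT was -1.32 in injured and 0.22 in sham kidneys. The WT value sat at the 2-fold line and was between 0.68 and 0.98 under 6 of 8 processing alternatives, and the difference between the injured kidneys was -0.92 with normexp fitted without flagged spots and -0.37 with normexp on all spots. The injury responses then differed by -1.07 and -0.53.

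Bnip3 encodes an outer mitochondrial membrane protein that directs mitochondria to mitophagy. Its probe (chr7:146083077-146083136) read 2.48 in NLRC5-/- injured and 3.42 in NLRC5-/- sham, against 2.57 in WT injured and 3.86 in WT sham. The 2 injured kidneys were within the technical SD of each other, at -0.09, and both lay below both sham kidneys. The injury difference was -0.94 in NLRC5-/- and -1.30 in WT.

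Ankrd37, which encodes an ankyrin-repeat protein and is induced by HIF-1, was set apart in the NLRC5-/- sham kidney. Its probe (chr8:47082404-47082463) read -1.82 in NLRC5-/- injured and -0.72 in NLRC5-/- sham, against -2.41 in WT injured and -2.44 in WT sham. The 2 WT arrays differed by 0.04, within the technical SD, and the injury difference in NLRC5-/- was -1.09, but -0.0039 with normexp on all spots. NLRC5-/- minus WT was 1.72 in sham kidneys, where 98.5% of all genes lay lower, and 0.59 in injured kidneys. That sham array is the one with the female pattern. It also had the highest summed signal of the erythroid markers, at 1.37 in NLRC5-/- injured and 55.9 in NLRC5-/- sham, against 1.84 in WT injured and 6.53 in WT sham. That sum covers the 4 of 5 markers with a probe, and 2 to 3 of these were well above background on each array. The part of either in the Ankrd37 values was not tested.

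Ndrg1, a stress-responsive gene whose product is induced by hypoxia in many cell types, was lowest in WT injured. Its probe (chr15:66761057-66761116) read 7.50 in NLRC5-/- injured and 7.66 in NLRC5-/- sham, against 6.82 in WT injured and 7.68 in WT sham. The 2 sham kidneys differed by -0.02. The injury difference was -0.16 in NLRC5-/- and -0.86 in WT, and it passed 2-fold in WT under 4 of 8 alternatives, with -1.35 in the authors' own value table at the far end. NLRC5-/- minus WT was 0.69 in injured kidneys.

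P4ha1, the catalytic subunit of collagen prolyl 4-hydroxylase, showed little difference by its brighter probe. That probe (chr10:58834272-58834331) read -1.13 in NLRC5-/- injured and -0.61 in NLRC5-/- sham, against -0.97 in WT injured and -0.80 in WT sham. The injury difference was -0.52 in NLRC5-/- and -0.17 in WT. The dimmer probe, which lies beside it, read -2.07, -1.60, -2.67 and -1.75 in the same group order, with injury differences of -0.48 and -0.91. The probes agreed in sign for injury, but NLRC5-/- minus WT in injured kidneys was -0.16 by one and 0.59 by the other.

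Between the injured kidneys, 3 of the 10 genes were at least 2-fold apart, Vegfa being higher in NLRC5-/- and Egln3 and Adm lower, where 19.3% of 16586 genes were 2-fold apart. The median of the 10 was -0.12, against 0.04 for all genes. Between the sham kidneys, 1 of 10, Ankrd37, was at least 2-fold apart and higher in NLRC5-/-, where 9.15% of 16827 genes were 2-fold apart, and the median was 0.08 against 0.04 for all genes. The injury differences of the 2 genotypes were at least 2-fold apart for 2 of 10 genes, Adm and Ankrd37, both more negative in NLRC5-/-, where 19.2% of 14849 genes were. With normexp on all spots neither was, Adm standing at -0.53 and Ankrd37 at -0.43. Vegfa lay at 0.98, just under that line. At 4-fold, 0 of 10 were apart between the injured kidneys, the sham kidneys or the responses, where 5.44%, 2.19% and 4.64% of genes were. These comparisons share arrays. The counts of 1 to 3 genes are close to the shares of all genes.

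The NLRC5-/- injured array was also set against WT sham, since NLRC5-/- sham had the other sex pattern. Against WT sham, Hif1a differed by -2.00, Egln1 by -2.26, Egln3 by -1.42 and Bnip3 by -1.38. Ankrd37 stood at 0.63 and was thus not lower than in that sham kidney. The remaining 5 genes lay between -0.46 and -0.17. These values also hold the difference between the slides.

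A limma fit over the 4 arrays, with genotype and treatment as additive terms, called 0 of 16408 genes (0%) for injury at an adjusted p of 0.05, the smallest adjusted p being 0.414. At an unadjusted p under 0.05 it had 1848 genes, or 11.3%, and 3 of the 10 pathway genes. Over both genotypes Egln1 differed by -1.63 with an SE of 0.31 (limma, adjusted p = 0.43). Hif1a differed by -1.23 with an SE of 0.27 (limma, adjusted p = 0.43). Bnip3 differed by -1.12 with an SE of 0.27 (limma, adjusted p = 0.43). None of the 3 passed after Benjamini-Hochberg adjustment over all genes, and the other 7 had adjusted p-values from limma of 0.43 to 0.812. For genotype, limma called 0 genes, the smallest adjusted p being 0.772, and 890 genes (5.42%) at an unadjusted p under 0.05. One of the 10 was among these, Egln3, at -1.09 with an SE of 0.33 (limma, adjusted p = 0.772). The counts turned on the background correction, on where its offset was added and on single arrays. After normexp without the flagged spots, 1018 genes were called by limma for injury, Egln1 (adjusted p = 0.0316) and Bnip3 (adjusted p = 0.0203) among them, and 145 for genotype. When the normexp offset was added after scaling, limma called 0 genes for injury and 0 for genotype. Egln1 and Bnip3 then each had an adjusted p of 0.355 for injury in limma. Without the NLRC5-/- injured array, and with genotype dropped, it called 795 for injury. Without WT sham, and with treatment dropped, it called 122 for genotype. The fit has 1 residual degree of freedom, and a true difference in response between the genotypes counts in it as error.

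Other genes of the pathway were grouped by role. Beside the counts that follow, the shares of all genes 2-fold apart either way were 9.16% for injury in NLRC5-/-, 29.7% for injury in WT, 19.3% between the injured and 9.15% between the sham kidneys. All 16 further HIF subunits and regulators were well above background on all arrays. After injury, 0 were at least 2-fold higher and 1 lower in NLRC5-/-, and 2 were higher and 3 lower in WT, with medians of -0.26 and -0.27. Egln2, which encodes the hydroxylase PHD1, differed by -0.92 in NLRC5-/- and -1.56 in WT. Vhl, the substrate receptor of the ligase that removes hydroxylated HIF, differed by -0.76 and -1.25, so that, with Egln1, it read lower in both injured kidneys. Cited2, which competes with HIF for the coactivator p300, differed by -0.67 and -1.43. Hif1an, the asparaginyl hydroxylase that blocks coactivator binding, read the other way, at 0.36 in NLRC5-/- and 1.27 in WT. Wsb1, the substrate receptor of another ubiquitin ligase, stood at 0.08 and 1.17. Cited4, a relative of Cited2, was the one regulator past 2-fold in NLRC5-/-, at -1.09, and its 2 WT arrays were within the technical SD of each other. The beta subunit Arnt differed by -0.38 and -0.37. Between the injured kidneys 0 of the 16 regulators were 2-fold apart, and between the sham kidneys 1 was, Hif1an at 1.17.

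Of 17 targets that act on vessels or as hormones, 15 to 16 could be compared, Nos2 being not above background on any array. The injury difference is only a lower bound in size for Stc1 in WT and for Epo in NLRC5-/-, where the injured array was not well above background, and Epo gave none in WT. After injury, 3 were at least 2-fold higher and 2 lower in NLRC5-/-, and 4 higher and 5 lower in WT. Hmox1, heme oxygenase 1, differed by 1.03 in NLRC5-/- and 3.04 in WT, and Angptl4, a lipase inhibitor, by 1.10 and 2.04. Hmox1 and Angptl4 thus read higher after injury while 7 of the 10 genes above read lower in both genotypes. The vessel genes ran the other way. The Vegf receptor Kdr differed by -0.33 and -2.17, and the Tie2 ligand Angpt2 by -2.29 and -3.40. Of 15 targets, 9 were at least 2-fold apart between the injured kidneys, 7 higher in NLRC5-/- and 2 lower, with a median of 0.80, where 19.3% of all genes were apart. The highest were Kdr at 2.46, Angpt2 at 2.16 and Stc2, a stanniocalcin, at 1.97, while Hmox1 stood at -2.81 and Angptl4 at -0.30. The endothelial marker list had 7 of 10 genes 2-fold higher in NLRC5-/- there, with a median of 1.60, and its part in the vessel genes was not tested. The vessel and hormone targets also read higher in NLRC5-/- between the sham kidneys, 13 of 16 above 0 and 3 below, with a median of 0.61. Of these, 4 were at least 2-fold higher and 0 lower, where 9.15% of all genes were apart. Kdr, Angpt2 and Stc2 stood at 0.62, 1.05 and 1.38 there.

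Erythropoietin (Epo), the hormone target that HIF-2 drives in kidney, was above background only in the 2 sham kidneys, at -4.59 in NLRC5-/- and -5.18 in WT. On both injured arrays its probe was not well above background. In NLRC5-/- the injury difference was thus bounded at -0.72. In WT no difference could be given. The lowest well-above-background signal of the WT injured array, the dimmest of the arrays, lay above the Epo level of WT sham.

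The 27 targets of glucose use and pH were split. After injury, 2 were at least 2-fold higher and 4 lower in NLRC5-/-, with a median of -0.53, and 5 higher and 5 lower in WT, with a median of -0.05. Hexokinase 2 (Hk2) differed by 1.62 in NLRC5-/- and 2.09 in WT, and the neuronal enolase Eno2 by 1.37 and 1.69. The aldolase Aldoc stood at -1.74 and -2.03. The glucose transporter Slc2a1 (GLUT1) had unlike signs, at -0.61 in NLRC5-/- and 1.56 in WT, as Adm had. The glycogen branching enzyme Gbe1 differed by -1.48 in NLRC5-/- and -0.05 in WT, and Ak4, a mitochondrial adenylate kinase, by -0.58 and -2.12. Between the injured kidneys 1 of 27 was at least 2-fold higher in NLRC5-/-, Ak4 at 1.06, and 5 were lower. The most negative were Gbe1 at -2.57, Hk2 at -2.37 and Slc2a1 at -1.50.

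Of 28 further targets that act on mitochondria, cell survival or collagen, 27 had a probe. After injury 0 were at least 2-fold higher and 1 lower in NLRC5-/-, and 5 were higher and 1 lower in WT, with medians of -0.14 and 0.09. The single gene in NLRC5-/- was Tfrc, the transferrin receptor, at -2.47 against -0.27 in WT. Tfrc is also expressed strongly in immature red cells, and NLRC5-/- sham had the highest erythroid signal, whose part in the Tfrc values was not tested. In WT the highest were Ddit4, an inhibitor of mTOR signalling, at 1.81, the circadian repressor Bhlhe41 at 1.45 and the collagen cross-linking enzyme Lox at 1.44, where NLRC5-/- had 0.45, 0.26 and 0.63. Bnip3l, the close relative of Bnip3, differed by -0.51 in NLRC5-/- and -0.99 in WT. Errfi1, a feedback inhibitor of the EGF receptor, was the lowest in WT at -1.23, with -0.97 in NLRC5-/-. Between the injured kidneys 0 of 27 were 2-fold higher in NLRC5-/- and 4 lower. The most negative were the lipid droplet gene Hilpda at -1.65, Ddit4 at -1.23 and Tfrc at -1.21.

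**Figure D4:**
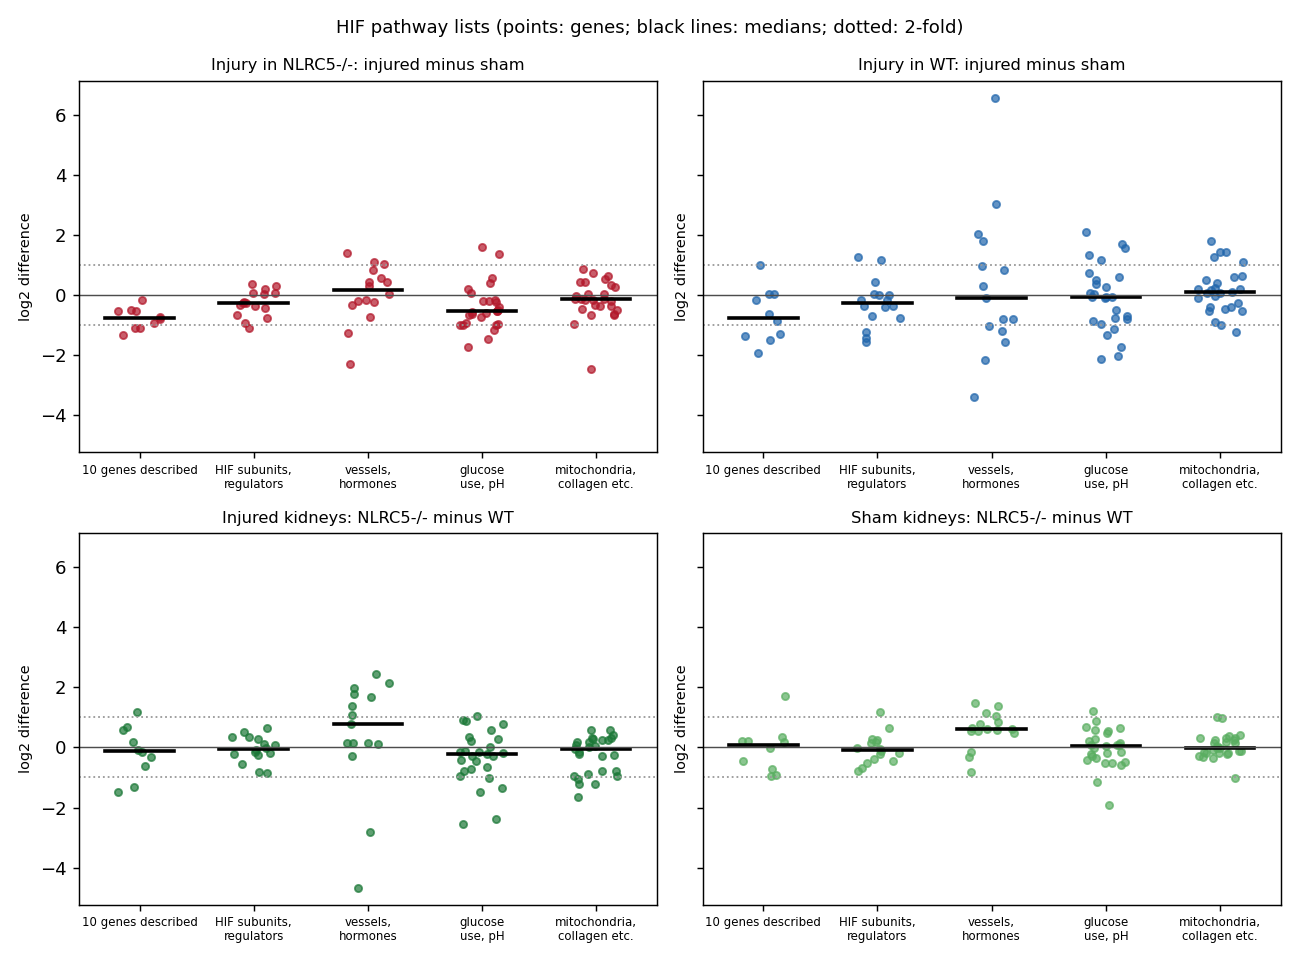
Log2 differences of single genes (points) and list medians (black lines) for the 10 genes described and 4 further HIF pathway lists, in the 2 injury comparisons above and the 2 genotype comparisons below, with dotted lines at 2-fold. The median of the 10 genes lies at -0.76 and -0.75 after injury, against -0.53 to 0.18 for the other lists.

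Injury itself was plain on the arrays. The summed scaled signal of 10 tubular injury markers was 472 in NLRC5-/- injured and 181 in NLRC5-/- sham, against 1384 in WT injured and 118 in WT sham. The median injury difference of these markers was 1.43 in NLRC5-/- and 3.41 in WT. Of the 10 proximal tubule markers, 1 was at least 2-fold higher and 1 lower after injury in NLRC5-/-, and 0 were higher and 7 lower in WT, with medians of -0.26 and -1.87. Adm and Ddit4 were highest in the same WT injured kidney that had the highest tubular injury signal. WT sham, where Hif1a, Egln1 and Bnip3 were highest, also had the highest summed signal of 6 adipocyte and of 5 urothelium markers. The adipocyte sum was 8.93 in NLRC5-/- injured and 13.1 in NLRC5-/- sham, against 4.62 in WT injured and 48.2 in WT sham. In that group order 2, 3, 3 and 5 adipocyte markers were well above background, with Lep not above background on any array. The urothelium sum was 1.09, 1.45, 0.83 and 4.30 in the same order. The part of these cell types in the values of the 10 genes was not tested.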

How the data were processed

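RNA of 4 kidneys was measured on one-colour Agilent arrays, grouped by the labels, 1 array per group. Spot intensity values, as deposited, came from Agilent's Feature Extraction software. Its version is 10.7.3.1 in the file headers but 9.1 in the submitters' processing notes. Local background had been subtracted within each array, per the file headers. A deposited table holds the authors' log2 values, whose scaling between arrays is not stated in those sources. Its column medians were 5.91 to 5.93, and it served as an alternative. Probe coordinates are mm9, as the files give them, and the position of a probe within exons or UTRs was not analysed here.

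Control spots and outlier-flagged spots were left out, log2 intensities were set relative to each array's 75th percentile, and spots of a probe were averaged. A GRCm38.p6 gene table from RefSeq named 27649 probes by accession, 5584 by symbol and 471 by synonym, 873 kept the file's name and 6565 stayed unnamed. A 2-fold count of differences covers genes well above background on either of the 2 arrays. With 1 array per group they have no replicate check. In the pathway and marker lists, a probe not well above background on one side was bounded by the array's lowest well-above-background signal. The shares of all genes used such readings without a bound. The limma fit (version 3.58.1, R 4.3.3) took genes well above background on at least 2 arrays, with Benjamini-Hochberg adjustment. Its p-values reflect only how these 4 samples vary, and its procedure was tested on simulated data. The number of arrays limits the precision.

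The 10 genes, the pathway lists and the marker lists were chosen with earlier results of these data known. Named from each list were the 3 genes with the largest and the 3 with the smallest difference in the comparisons described, of which the text gives a selection, and some are not reported here. Arnt, Epo and Nos2 were named after their values were seen. Alternatives covered background correction (normexp, offset 50), scaling, the dim-probe filter, flagged spots, the probe rule, the threshold, the authors' table and leaving out each array.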

Additional observations from a re-analysis of the deposited data

Results flagged for a closer look

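The injury differences of Adm ran in opposite directions, at -0.53 in NLRC5-/- and 1.02 in WT, which left -1.54 between them. With 1 array per group this difference was not tested. Read the other way, NLRC5-/- minus WT for Adm was -1.32 in injured and 0.22 in sham kidneys, again -1.54 apart and not tested. For P4ha1, NLRC5-/- minus WT was -0.16 in injured and 0.19 in sham kidneys by the brighter probe. These values were -0.34 apart, each was close to the technical SD, and the difference was not tested.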

How the results depend on the processing

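Of all 50 differences of the 10 genes, 9 changed sign with normexp fitted on all spots. Signs changed for 3 each with the normexp offset added after scaling and with the mean over probes. They changed for 2 each with median scaling and the authors' table, and for 1 with quantile normalization. With normexp fitted without flagged spots, and with flagged spots kept, 0 did. Of the 14 differences that reached 2-fold, 0 changed sign under any of 8 processing alternatives. The 2-fold call was lost for 9 with normexp fitted on all spots, 6 with normexp fitted without flagged spots and 7 with normexp with the offset added after scaling, which was added once the data had been seen. It was lost for 2 with the mean over probes, for 1 each with quantile normalization, with the authors' table and with median scaling, and for 0 with flagged spots kept. Normexp on all spots gave the NLRC5-/- injured array a fitted background of -225.2, against -5.39 to -1.30 on the other arrays, and 6 of its spots had a local background over 100. In NLRC5-/- after injury, 0 of the 10 genes were 2-fold apart with normexp fitted without flagged spots and 0 with the offset after scaling. Between the injured kidneys there were 0, 1 and 1 with the 3 normexp settings, and between the injury responses 1 with normexp on all spots. Between the sham kidneys median scaling gave 3 (1 higher, 2 lower). It moved the median of all genes to -0.12 for WT injury and to -0.11 for the sham kidneys, and normexp on all spots or without flagged spots moved it to between -0.19 and 0.24 over the comparisons. At 4-fold, 0 of 10 genes remained in each of the 5 comparisons with the main processing. With median scaling Egln1 passed 4-fold after injury in WT, at -2.05. The limma count for injury was 4308 with normexp on all spots and 1018 without flagged spots, and 0 to 795 when 1 array was left out with the other term dropped, 795 coming without NLRC5-/- injured. With normexp fitted without flagged spots, Egln1 had an adjusted p of 0.0316 and Bnip3 of 0.0203 in limma for injury. With the offset added after scaling both had 0.355 in limma, and 0 genes were called for injury and 0 for genotype. For genotype the count was 97, 145 and 0 to 122, with 122 coming without WT sham. The causes were not tested. No paired analysis was possible because each group had 1 array and the labels give no replicate numbers, and the genotype term of the limma fit is also the slide term. Signals were lowest in WT injured, and 1 array per group limits every value.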
